A study of Mus musculus with 8 samples.

Results

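The miR-99/100 and miR-125 families were measured in ventral spinal cord from the lumbar level in wild type and MLC/SOD1[G93A] mice. They are 7 of the 375 miRNA assays of the TaqMan card: mmu-miR-99a, mmu-miR-99b, mmu-miR-100, mmu-miR-125a-5p, mmu-miR-125a-3p, mmu-miR-125b-5p and mmu-miR-125b-3p, written below without the prefix for mouse. The rule takes them by name and uses no measured value. Both groups were on the FVB background and were 4 months old. The 4 wild type samples were of mice without a transgene. The 4 MLC/SOD1[G93A] samples were of mice with a mutant SOD1 transgene driven by a promoter of the Myosin Light Chain (MLC) gene that works in skeletal muscle, so that the spinal cord itself was not the tissue to which the transgene was directed. Total RNA was used, and each sample has 1 column of card A. The sources used here do not say whether RNA of several mice was pooled, so p-values measure only the spread between these samples. The question was whether the spinal cord miRNAs differ when the mutant protein is made in muscle.

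The card runs a quantitative PCR for each miRNA and reads out its threshold cycle, Ct, at which fluorescence passes a fixed level. More miRNA gives a lower Ct, and 1 cycle less means roughly double the amount. Wells with a Ct above 35 or with none were treated as not measured. The wild type samples are numbered 1 to 4. The MLC/SOD1[G93A] columns are named 5a to 8a and were assigned to the group only.

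miRNAs guide silencing complexes to target mRNAs mainly through the seed, bases 2 to 8 from the 5′ end. The miR-99/100 family is an old animal family whose known targets include components of the mTOR and IGF1 receptor pathway. The miR-125 family holds the vertebrate relatives of lin-4, the first miRNA described in worms, and is abundant in the nervous system, where it takes part in neuronal differentiation. Members of both families sit together with a let-7 gene in conserved clusters. let-7 is a large family linked to the end of proliferation and to differentiation.

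The mature sequences show why the 5′ arms fall into 2 groups and how little separates the members of each. The 3′ arm miR-125a-3p has another seed. They are given from RefSeq, 5′ to 3′, with the seed in capitals. A mature sequence was matched for 6 of the 7 members.

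miR-99a: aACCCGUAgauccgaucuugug
miR-99b: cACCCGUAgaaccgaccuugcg
miR-100: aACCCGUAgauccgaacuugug
miR-125a-5p: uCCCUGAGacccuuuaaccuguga
miR-125b-5p: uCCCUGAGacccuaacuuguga
miR-125a-3p: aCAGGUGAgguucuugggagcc

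miR-99a, miR-99b and miR-100 have the same seed, which no other of the 1679 mature mouse miRNA names in the RefSeq table has. miR-99a and miR-100 are identical in 21 of 22 bases and differ by U16A, with miR-99a first and bases counted from the 5′ end. miR-99a and miR-99b are identical in 18 of 22 bases and differ by A1C, U11A, U16C and U21C. miR-125a-5p has 24 bases and miR-125b-5p 22, and they share the first 13 and the last 5. Their seed is held by 5 mature names, also by miR-351-5p. Assays for sequences that differ by 1 base may detect each other's targets in part, which was not tested here for miR-99a and miR-100.

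The 3′ arm of miR-125b has 2 RefSeq sequences, and the assay name does not tell which of them it measures. They differ in the seed and are shown for that reason.

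miR-125b-1-3p: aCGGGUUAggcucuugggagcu
miR-125b-2-3p: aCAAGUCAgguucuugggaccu

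The let-7 partners in the clusters have a common seed and differ from each other at 1 or 2 positions outside it. From let-7a, let-7c differs by A19G and let-7e by U9G.

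let-7a: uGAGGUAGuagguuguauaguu
let-7c: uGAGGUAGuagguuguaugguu
let-7e: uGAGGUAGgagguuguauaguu

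In the mouse assembly GRCm38.p6 the members lie in 3 clusters, each on the plus strand with the order miR-99/100, let-7, miR-125. The Mir99a cluster (Mir99a, Mirlet7c-1, Mir125b-2) spans chr16:77598940-77646339, or 47400 bases, and no annotated gene of the table covers it. The Mir99b cluster (Mir99b, Mirlet7e, Mir125a) spans chr17:17830194-17830876, only 683 bases, inside the annotation of Spaca6. The Mir100 cluster (Mir100, Mirlet7a-2, Mir125b-1) spans chr9:41531437-41582001, or 50565 bases, inside the non-coding host gene Mir100hg. miR-125b-5p is made from both chr16:77646279-77646300 and chr9:41581940-41581961 with 1 sequence, so its assay sums both clusters. let-7a and let-7c also have further loci outside these clusters.

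Between 239 and 256 miRNAs were measured per sample, and 190 were measured in all 8. Each member was read against U6, a small nuclear RNA present in 4 wells of the card. It was also read against the global mean, which averages the Ct of those 190. Log2 expression is the Ct of the reference minus the Ct of the miRNA. For U6, Ct averaged 18.06 ± 0.43 (SD, n = 4) over wild type samples and 17.96 ± 0.76 (SD, n = 4) over MLC/SOD1[G93A] samples. The global mean Ct was 28.40 ± 0.45 and 28.66 ± 0.26 in the same order. The 2 references moved apart in wild type 1 and sample 7a. In wild type 1 the Ct of the 190 miRNAs was above the median of the other wild type samples by 0.90 in the median, while its U6 Ct was lower, at 17.45 against 18.15 to 18.44. Sample 7a had the lowest U6 Ct, 16.88, with U6 wells that differed by 2.14 cycles, and a signal at Ct 29.85 in the plant miRNA well, a negative control that gave no Ct in the other samples. The U6 wells also differed by 1.97 cycles in sample 8a and by 1.05 in sample 6a, against 0.39 to 0.78 in the remaining samples. Values are given with and without wild type 1 and sample 7a where these decide a result.

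The markers of the tissue were present. All 4 neuronal markers (miR-124, miR-9, miR-128a, miR-218) and both oligodendrocyte markers (miR-219, miR-338-3p) were measured in enough samples to be tested. With the global mean as the reference, the median log2 change of the neuronal markers was -0.15. That of the oligodendrocyte markers was -0.46, from changes of -0.80 and -0.11. No marker passed an adjusted p of 0.05 in limma. On the log2 scale the summed level of the neuronal markers was 6.50 to 6.79 in wild type and 6.12 to 6.74 in MLC/SOD1[G93A] samples, and that of the oligodendrocyte markers 0.53 to 0.97 and 0.08 to 0.94. For 3 of 4 leukocyte and microglia markers (miR-142-5p was not tested), the median change relative to the global mean was -0.61, with a range of -1.45 to 0.20. It was -0.51 for 2 of 3 red blood cell markers (miR-144 was not analysed here), from changes of -1.12 and 0.09. For 4 endothelial and mural cell markers it was -0.13 and for 3 skeletal muscle markers -0.10. In limma, 1 oligodendrocyte marker and 1 leukocyte and microglia marker had an unadjusted p under 0.05. The part of cell composition in the values of the members was not tested, and in a tissue extract fewer cells of a type and less of a miRNA per cell cannot be told apart.

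The 5′ arms were among the abundant miRNAs of the cord. miR-125b-5p had the lowest mean Ct of the members, 25.16 ± 0.41 (SD, n = 8), rank 22 of the 190 miRNAs in order of Ct. miR-125a-5p followed at 25.55 ± 0.50, miR-99a at 25.93 ± 0.71, miR-100 at 26.51 ± 0.63 and miR-99b at 27.42 ± 0.66. The let-7 partners stood at 25.55 for let-7e, 27.40 for let-7c and 28.40 for let-7a. miR-125b-5p and miR-125a-5p, next to each other in this order, were in that order in 6 of 8 samples, with a Ct difference of 0.39 ± 0.83 (SD, n = 8) that is within its spread. miR-100 and let-7c were in the same order in 8 of 8 samples. The order is of Ct values, and assays may differ in efficiency, so it is only roughly an order of abundance.

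The Ct values of the members, before any reference, also set wild type 1 apart. For miR-99a they were 27.37, 25.96, 25.31 and 25.36 in wild type 1 to 4, and 25.97, 26.49, 25.49 and 25.47 in samples 5a to 8a. For miR-99b they were 28.93, 26.99, 27.12 and 26.97, and then 27.74, 27.35, 27.09 and 27.13. For miR-100 they were 27.31, 26.12, 25.94 and 26.00, and then 26.85, 26.61, 27.41 and 25.86. The 3 members of the miR-99/100 family had their highest wild type Ct in wild type 1. Only miR-100 also had a high Ct in sample 7a.

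In the miR-125 family the 2 main arms did not vary alike. miR-125b-5p gave a Ct of 25.89, 24.98, 24.75 and 24.75 in wild type 1 to 4, and 25.23, 25.30, 25.55 and 24.83 in samples 5a to 8a. miR-125a-5p gave 25.28, 25.95, 26.31 and 25.70, and then 25.61, 25.57, 24.61 and 25.34. In wild type 1 the Ct of miR-125b-5p was 1.14 above the median of the other wild type samples, while that of miR-125a-5p was -0.67 relative to it, on the other side. In sample 7a miR-125a-5p had its lowest Ct, and miR-125b-5p its highest of the group.

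The minor arms were near the limit of measurement. miR-125a-3p gave a Ct of 34.14, 32.98, 35.42 and 32.97 in wild type 1 to 4, and 33.12, 33.50, 35.99 and 34.15 in samples 5a to 8a, so that 3 samples of each group were measured. miR-125b-3p gave 35.61, undetermined, 33.91 and 35.04, and then 33.18, 34.93, 34.68 and 35.59. It was measured in 1 wild type and 3 MLC/SOD1[G93A] samples and was not tested. This difference in the number measured is of wells close to the limit, and no level was set against it. With a Ct limit of 40 it had a log2 change of 0.21 ± 0.87 (SE) relative to U6 and of 0.54 ± 0.64 (SE) relative to the global mean, with adjusted p = 0.979 and 0.886 in limma.

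Of the 7 members, 6 were tested, those measured in at least 3 samples of each group. No member was called at an adjusted p of 0.05 in limma under either reference, as was the case for all 227 miRNAs tested (0.0% in each direction), and no member had an unadjusted p under 0.05. At an unadjusted p under 0.05 limma gave 5 lower miRNAs (2.2%) and 1 higher (0.441%) when read against U6, and 13 lower (5.73%) and 8 higher (3.52%) when read against the global mean. The groups overlapped for all 6 members under both references, where they did not overlap for 1.76% of all miRNAs with U6 and for 4.41% with the global mean. With U6, 4 of the 6 members had a positive log2 change and 2 a negative one, where 22.5% of all miRNAs were positive and 77.5% negative. The median change was 0.06 for the members and -0.31 for all. With the global mean the counts were again 4 and 2, where 53.7% of all miRNAs were positive and 46.3% negative. The median change was then 0.26 for the members and 0.04 for all. The members are not independent of each other, as they share sequence, loci and samples.

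**Figure D1:**
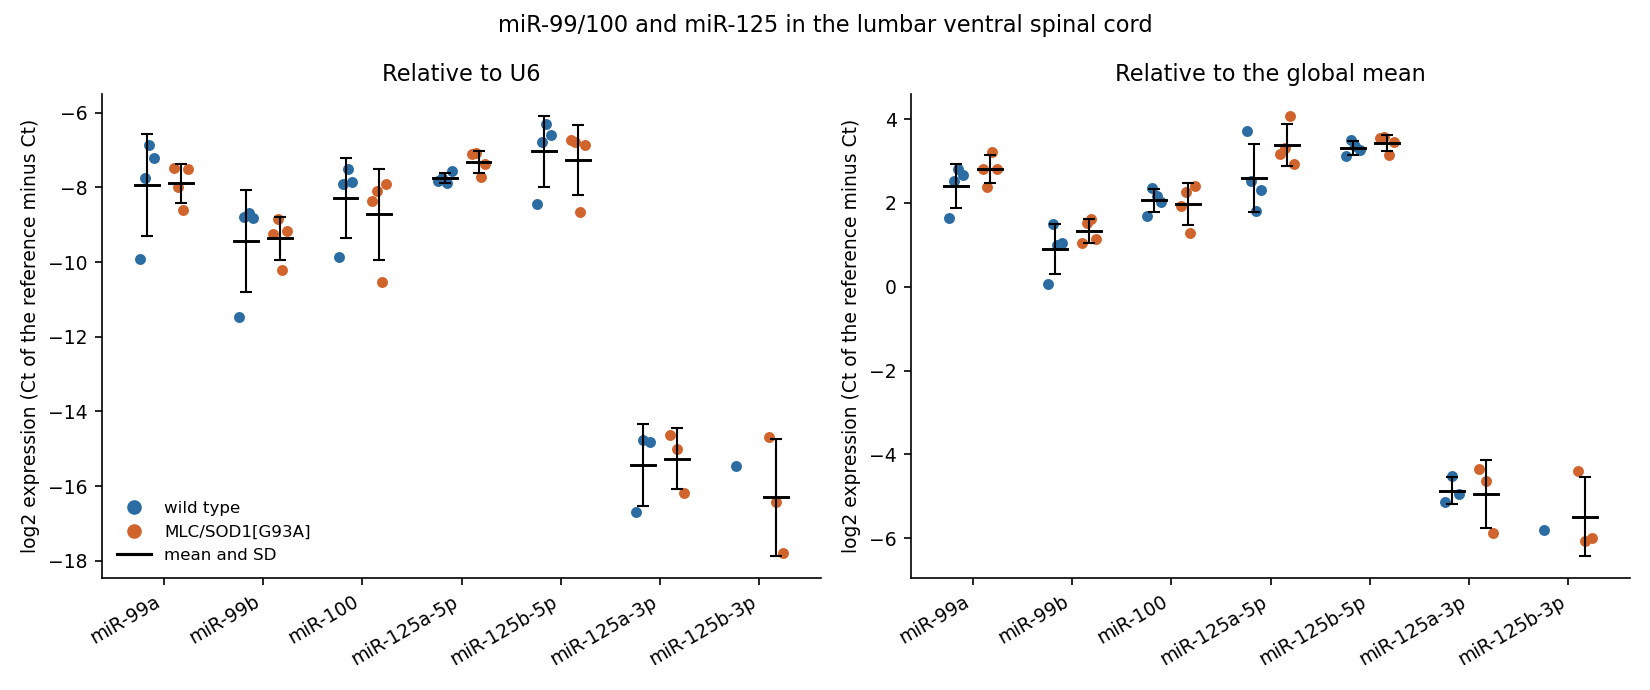
Log2 expression (Ct of the reference minus Ct) of the 7 members in each sample, relative to U6 on the left and to the global mean on the right. Points are samples, and bars are the mean and SD of the wild type (blue) and MLC/SOD1[G93A] (orange) samples. The groups overlap for each tested member, and the spread of most members is smaller on the right than on the left.

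miR-99a, the first miRNA of the Mir99a cluster, was at -9.92, -7.76, -6.87 and -7.22 relative to U6 in wild type 1 to 4, and at -7.47, -7.99, -8.61 and -7.51 in samples 5a to 8a. Wild type 1 was lowest of all and the other samples were mixed. The log2 change was 0.05 ± 0.68 (SE; adjusted p = 0.975 in limma, exact permutation p = 1.0), and it was -0.61 without wild type 1. Against the global mean it was at 1.63, 2.52, 2.80 and 2.66, and then at 2.81, 2.38, 3.20 and 2.80. That change was 0.40 ± 0.31 (SE; adjusted p = 0.697 in limma, exact permutation p = 0.229), and without wild type 1 it was 0.14. Without sample 6a it was 0.54 and the groups did not overlap. The share of all miRNAs was not computed there, so this separation cannot be weighed. Leaving out wild type 1 moved that share from 4.41% to 18.9%.

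miR-99b, made from the short Mir99b cluster, was at -11.48, -8.79, -8.68 and -8.83 relative to U6 in wild type 1 to 4, and at -9.24, -8.85, -10.21 and -9.17 in samples 5a to 8a. The log2 change was 0.08 ± 0.68 (SE; adjusted p = 0.975 in limma, exact permutation p = 1.0). Its direction was not stable. Without sample 6a the change was -0.10. Without wild type 1 it was -0.60 and the groups no longer overlapped, which was also so for 21.6% of all miRNAs tested. On the scale of the global mean miR-99b was at 0.07, 1.49, 0.99 and 1.05, and then at 1.04, 1.52, 1.60 and 1.14. That change was 0.43 ± 0.32 (SE; adjusted p = 0.697 in limma), and without wild type 1 it was 0.15.

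miR-100, made from the Mir100 cluster, was at -9.86, -7.92, -7.50 and -7.86 relative to U6 in wild type 1 to 4, and at -8.35, -8.11, -10.53 and -7.90 in samples 5a to 8a. The lowest sample of each group stood more than 1 cycle from the rest. The log2 change was -0.44 ± 0.70 (SE; adjusted p = 0.975 in limma, exact permutation p = 0.486), and without sample 7a it was 0.16. With the global mean as the reference it was at 1.69, 2.36, 2.17 and 2.02, and then at 1.93, 2.26, 1.28 and 2.41. That change was -0.09 ± 0.30 (SE; adjusted p = 0.978 in limma, exact permutation p = 0.8).

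miR-125a-5p, the miR-125 arm of the Mir99b cluster, had the largest change of the members under the global mean and the narrowest spread under U6. Relative to U6 it was at -7.83, -7.75, -7.87 and -7.56 in wild type 1 to 4, and at -7.11, -7.07, -7.73 and -7.38 in samples 5a to 8a. Of the MLC/SOD1[G93A] samples, 3 lay above each wild type sample and sample 7a lay among them. The means were -7.75 ± 0.14 (SD, n = 4) and -7.32 ± 0.30 (SD, n = 4), a log2 change of 0.43, or 1.35-fold. In limma the standard error was 0.54 and the adjusted p = 0.975. limma moves the variance of each miRNA toward that of all miRNAs tested, so these do not measure the spread of miR-125a-5p alone. The exact permutation p was 0.0571, where 0.0286 is the smallest that 4 against 4 allow. Without sample 7a the change was 0.56 and the groups did not overlap, which held for 4.41% of all miRNAs tested. They also did not overlap without wild type 4, or without both wild type 1 and sample 7a. The share of all miRNAs was not computed for these, so those separations cannot be weighed.

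Against the global mean miR-125a-5p was at 3.72, 2.53, 1.80 and 2.32 in wild type 1 to 4, and at 3.17, 3.30, 4.08 and 2.93 in samples 5a to 8a. Here wild type 1 was the sample that overlapped the other group. The log2 change was 0.78 ± 0.42 (SE; adjusted p = 0.627 in limma, exact permutation p = 0.171), or 1.72-fold. Without wild type 1 it was 1.16, with adjusted p = 0.170 in limma, and the groups did not overlap, as was the case for 18.9% of all miRNAs tested. The change of miR-125a-5p was positive with each sample left out in turn, at 0.34 to 0.56 relative to U6 and at 0.52 to 1.16 relative to the global mean. It was negative, at -1.84, with the control RNA U87 as the reference, which moved the median of all miRNAs to -2.58, and 1.37 with the control RNA Y1, which moved it to 0.64.

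miR-125b-5p, the most abundant member by Ct, was at -8.44, -6.78, -6.31 and -6.61 relative to U6 in wild type 1 to 4, and at -6.73, -6.80, -8.67 and -6.87 in samples 5a to 8a. The log2 change was -0.23 ± 0.65 (SE; adjusted p = 0.975 in limma, exact permutation p = 0.486). Samples 5a, 6a and 8a lay close together with sample 7a well below them, and without it the change was 0.23. With the global mean miR-125b-5p was at 3.11, 3.50, 3.36 and 3.27, and then at 3.55, 3.57, 3.14 and 3.44. All 8 samples lay close together on that scale. The change was 0.12 ± 0.21 (SE; adjusted p = 0.964 in limma, exact permutation p = 0.371), or 1.08-fold.

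miR-125a-3p, the minor arm, had a log2 change of 0.16 ± 0.76 (SE; adjusted p = 0.975 in limma) relative to U6 and of -0.08 ± 0.44 (SE; adjusted p = 0.978 in limma) relative to the global mean, with 3 samples in each group. Its sign differs between the references.

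**Figure D2:**
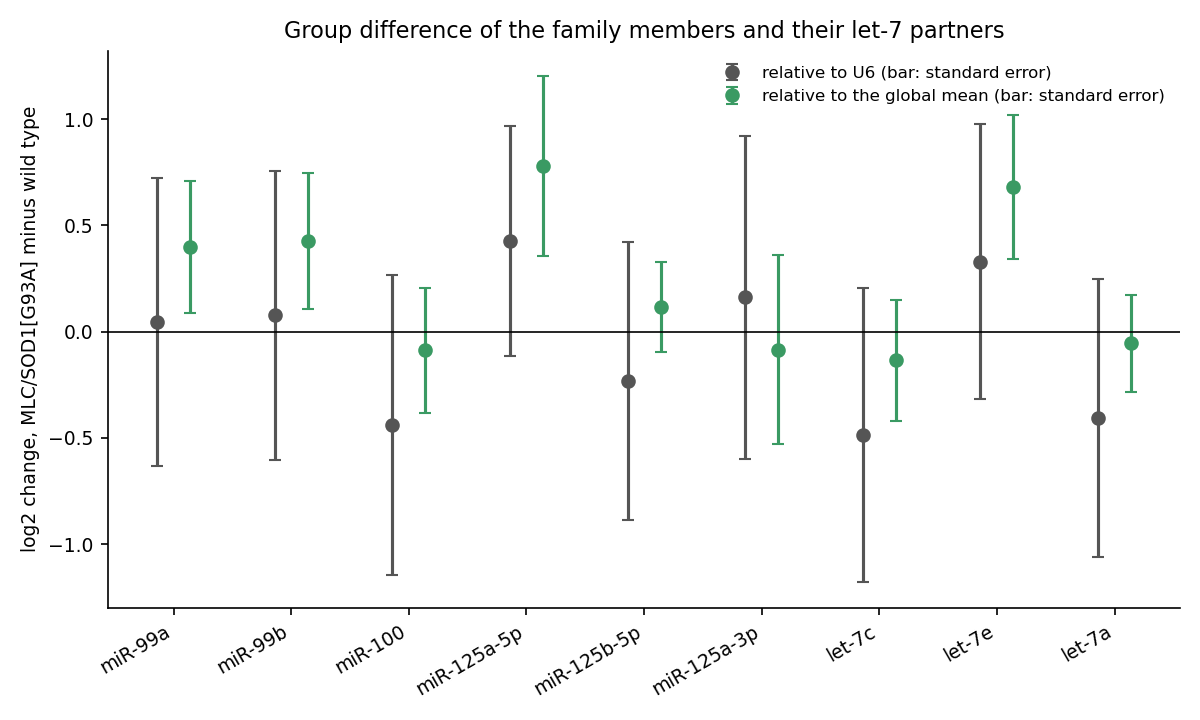
Log2 change (MLC/SOD1[G93A] minus wild type) of the 6 tested members and of their let-7 partners, relative to U6 (grey) and to the global mean (green). Bars are the standard error of limma. The grey bars all cross 0, and miR-125a-5p and let-7e have the largest green values, 0.78 and 0.68.

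The let-7 partners and the related families were read in the same way. let-7e, the partner in the Mir99b cluster, had a log2 change of 0.33 ± 0.65 (SE) relative to U6 and of 0.68 ± 0.34 (SE; adjusted p = 0.572 in limma, exact permutation p = 0.0571) relative to the global mean. let-7c and let-7a had changes of -0.49 and -0.41 relative to U6, and of -0.14 and -0.06 relative to the global mean. So the 3 miRNAs of the Mir99b cluster had positive values under both references (median 0.33 and 0.68). Relative to U6 this rested on wild type 1 for miR-99b and let-7e. Without that sample the change of miR-99b was -0.60. For let-7e, wild type 1 was at -9.59 and the other wild type samples at -7.16 to -7.01. The MLC/SOD1[G93A] samples were at -7.74 to -7.12. Those of the Mir100 cluster were all negative relative to U6 (median -0.41), as were 77.5% of all miRNAs tested (median -0.31). Relative to the global mean their median was -0.06. In the Mir99a cluster the median was -0.23 and 0.12, the values of miR-125b-5p, which both clusters hold. None of these miRNAs passed the test, and the difference between the clusters was not tested.

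Of the other let-7 family (let-7b, let-7d, let-7f, let-7g, let-7i and miR-98), 6 of 6 were tested and none was called. Their log2 changes ran from -0.67 for let-7b to 0.04 for let-7f relative to U6, and from -0.32 to 0.39, for the same miRNAs, relative to the global mean. miR-10a and miR-10b are related in sequence to miR-99/100 and are known from Hox gene clusters. They had changes of -0.44 and -0.27 relative to U6 and of -0.09 and 0.08 relative to the global mean, and neither was called. miR-351, which has the seed of miR-125 and was looked at after its values were seen, was measured in 4 wild type and 2 MLC/SOD1[G93A] samples and was not tested.

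A ratio of 2 miRNAs within a sample needs no reference, since both Ct values come from the same card. The log2 ratio is the Ct of the second miRNA minus that of the first. Of 15 ratios between arms, cluster partners and family members, 14 could be tested. The groups did not overlap in 1 of them, and in 4.91% of the 17955 pairs of miRNAs measured in all samples. No ratio passed after adjustment over all pairs.

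That ratio was miR-99a over let-7c, neighbours in the Mir99a cluster. It was 1.17, 0.95, 1.30 and 1.41 in wild type 1 to 4, and 1.77, 1.42, 2.27 and 1.50 in samples 5a to 8a. The groups were separated by 0.01 cycle, between wild type 4 and sample 6a. The means were 1.21 ± 0.20 (SD, n = 4) and 1.74 ± 0.38 (SD, n = 4), a difference of 0.53, or 1.45-fold more miR-99a per let-7c in MLC/SOD1[G93A] mice. The exact permutation p was 0.0286, the smallest that 4 against 4 allow, and it was 0.582 after adjustment over all pairs. The difference was 0.36 to 0.64 with each sample left out in turn, lowest without sample 7a. let-7c is also made from a locus on another chromosome, so this is not a ratio within the cluster alone.

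The other ratios of the Mir99a cluster overlapped between the groups. miR-99a over miR-125b-5p differed by 0.28 (exact permutation p = 0.457), but by 0.05 without sample 7a, 0.09 without wild type 1 and 0.47 without sample 6a. let-7c over miR-125b-5p differed by -0.25 (exact permutation p = 0.257), and by -0.43 without wild type 1, where the groups were apart. In the Mir100 cluster the differences were smaller. miR-100 over miR-125b-5p was -1.42, -1.14, -1.19 and -1.25 in wild type 1 to 4, and -1.62, -1.31, -1.86 and -1.03 in samples 5a to 8a (difference -0.21, exact permutation p = 0.343). With each sample left out in turn this difference ran from -0.35 without sample 8a to -0.07 without sample 7a. miR-100 over let-7a differed by -0.03 (exact permutation p = 0.943) and let-7a over miR-125b-5p by -0.17 (exact permutation p = 0.429). The latter ran from -0.35 without wild type 2, where the groups were apart, to -0.06 without sample 6a.

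In the Mir99b cluster the spread of the ratios turned on wild type 1. miR-99b over let-7e was -1.89, -1.63, -1.67 and -1.75 in wild type 1 to 4, and -2.12, -1.37, -2.47 and -1.99 in samples 5a to 8a, with an SD of 0.34 over the 8 samples. miR-99b over miR-125a-5p was -3.65, -1.04, -0.81 and -1.27, and then -2.13, -1.78, -2.48 and -1.79, with an SD of 0.91. let-7e over miR-125a-5p was -1.76, 0.59, 0.86 and 0.48, and then -0.01, -0.41, -0.01 and 0.20, with an SD of 0.81. Wild type 1 stood far below the other wild type samples in both ratios that hold miR-125a-5p, and close to them in the one that does not. Within the MLC/SOD1[G93A] group miR-99b over let-7e had the widest spread, with an SD of 0.46 (n = 4). The SD was 0.33 for miR-99b over miR-125a-5p and 0.26 for let-7e over miR-125a-5p.

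The group differences of these 3 ratios were -0.25 (exact permutation p = 0.371), -0.35 (exact permutation p = 0.686) and -0.10 (exact permutation p = 0.943). miR-99b over let-7e differed by -0.09 without sample 7a and by -0.46 without sample 6a, where the groups were apart. miR-99b over miR-125a-5p differed by -0.06 without wild type 3 and by -0.14 without wild type 2, and let-7e over miR-125a-5p by 0.17 and 0.08 in the same order. Without wild type 1 the differences were -1.01 for miR-99b over miR-125a-5p and -0.70 for let-7e over miR-125a-5p, and the groups of both no longer overlapped (exact permutation p = 0.0571 each, the smallest that 4 against 3 allow). This sample moved many pairs in that way. Without it 6 of the 14 ratios were apart, 4 of them with miR-125a-5p, where 17.7% of all pairs measured in all samples were. 1 of the 4, miR-125a-3p over miR-125a-5p, is not among those pairs. It then rested on wild type 2 and 4 against samples 5a, 6a and 8a (exact permutation p = 0.2). The count of ratios apart was also 6 without both wild type 1 and sample 7a (22.0% of all pairs), again with that ratio. It was 2 when either wild type 2 (8.54%) or sample 6a (7.82%) was left out.

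Between the families' members, miR-99a over miR-99b was 1.56, 1.03, 1.81 and 1.61 in wild type 1 to 4, and 1.77, 0.86, 1.60 and 1.66 in samples 5a to 8a. The difference was -0.03 (exact permutation p = 0.886). miR-99a over miR-100 and miR-99b over miR-100 differed by 0.49 (exact permutation p = 0.4) and 0.52 (exact permutation p = 0.257), and without sample 7a by 0.12 and 0.19. miR-125a-5p over miR-125b-5p was 0.61, -0.97, -1.56 and -0.95, and then -0.38, -0.27, 0.94 and -0.51. It differed by 0.66, or 1.58-fold (exact permutation p = 0.286), by 0.33 without sample 7a, and by 0.38 without wild type 3. Without wild type 1 it differed by 1.11 and the groups did not overlap, as in 17.7% of all pairs.

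**Figure D3:**
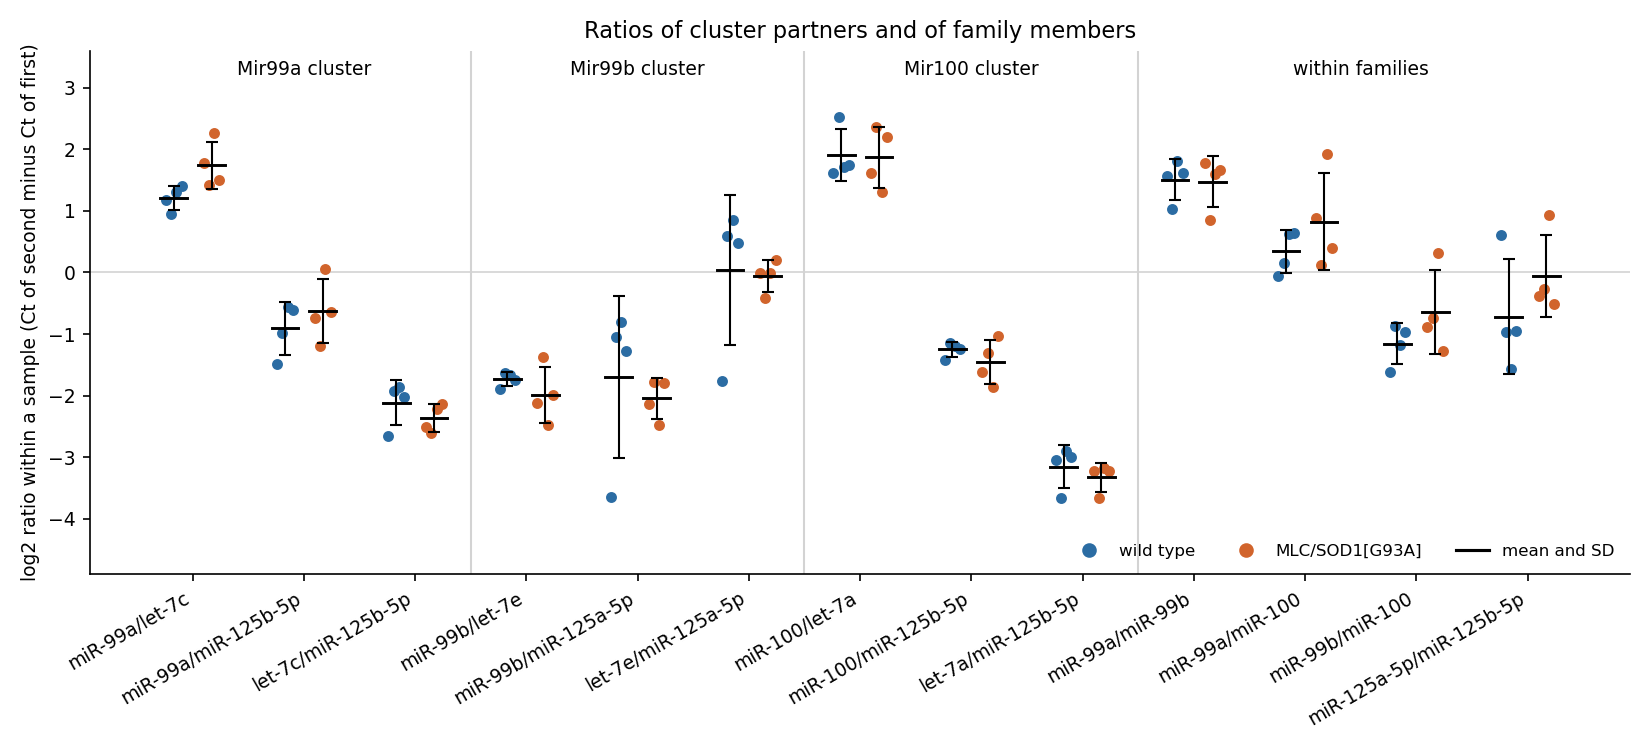
Log2 ratio of 2 miRNAs within a sample (Ct of the second minus Ct of the first) for the partners of the 3 clusters and for members of a family. Points are samples, and bars are the mean and SD of each group. Only miR-99a/let-7c has groups that do not overlap, and the lone low wild type points in miR-99b/miR-125a-5p and let-7e/miR-125a-5p are wild type 1.

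The 5′ arm was far above the 3′ arm in each sample measured. The log2 ratio of miR-125a-3p to miR-125a-5p was -8.86, -7.03 and -7.27 in wild type 1, 2 and 4, and -7.51, -7.93 and -8.81 in samples 5a, 6a and 8a. The group difference was -0.36 (exact permutation p = 0.6, where 0.1 is the smallest that 3 against 3 allow). The ratio of miR-125b-3p to miR-125b-5p was -9.16 in wild type 3, and -7.95, -9.63 and -9.13 in samples 5a, 6a and 7a. The means over all measured samples were -7.90 (n = 6) and -8.97 (n = 4), and samples over the Ct limit would lie lower still.

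The spread of the members over the 8 samples depended on what they were set against. miR-125a-5p had an SD of 0.32 relative to U6, rank 2 of 190 from the narrowest, but of 0.75 relative to the global mean, rank 162. miR-125b-5p was the other way round, with 0.89 relative to U6, rank 95, and 0.18 relative to the global mean, rank 5. miR-99a, miR-99b and miR-100 had an SD of 0.96, 0.97 and 1.09 relative to U6, and of 0.46, 0.49 and 0.38 relative to the global mean. The median SD of all miRNAs was 0.89 with U6 and 0.46 with the global mean. So over all 8 samples miR-125a-5p had the narrower spread of the 2 relative to U6, and miR-125b-5p relative to the global mean. The order relative to U6 rested on wild type 1 and sample 7a, where miR-125b-5p was at -8.44 and -8.67. In the other samples miR-125b-5p lay between -6.87 and -6.31, and miR-125a-5p between -7.87 and -7.07.

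**Figure D4:**
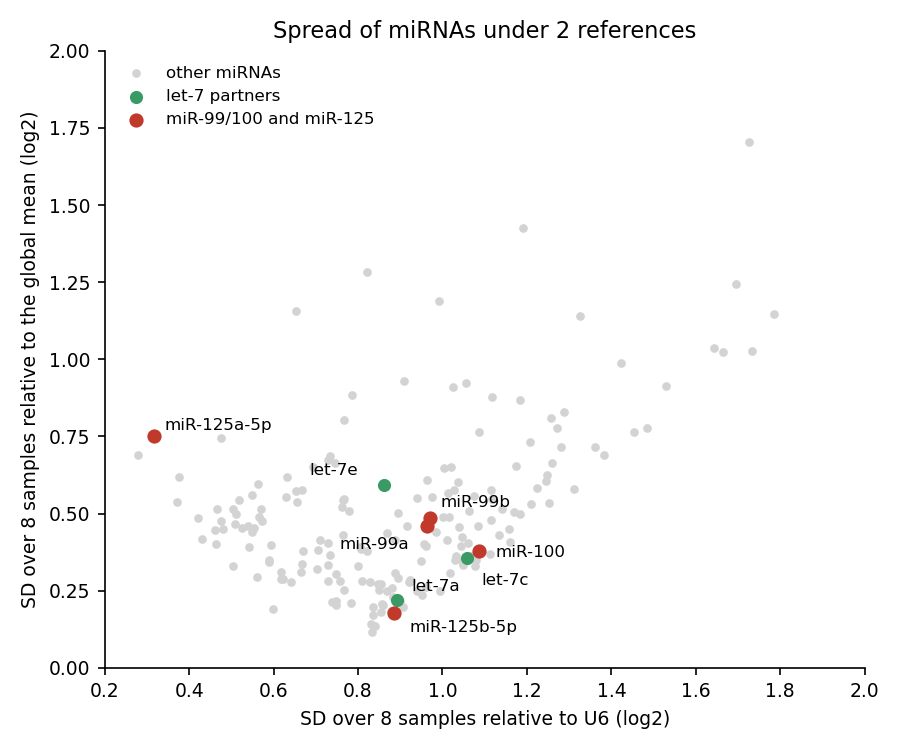
SD over the 8 samples of the miRNAs measured in all of them, relative to U6 (horizontal, log2) and to the global mean (vertical, log2). Grey points are other miRNAs, and 2 miRNAs lie outside the axes. miR-125a-5p lies at the upper left (0.32 and 0.75), and miR-125b-5p near the bottom (0.89 and 0.18).

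The miRNAs whose Ct ran most like a member were found by the SD of the Ct difference over the 8 samples, out of 185 miRNAs outside the families. The values describe 8 cards, and were not tested. miR-125b-5p ran closest to miR-10b (SD 0.11), miR-140 (0.13) and miR-30a (0.15), and miR-100 to miR-30a (0.18), miR-532-5p (0.20) and miR-10b (0.21). So miR-10b and miR-30a were near both. miR-99a ran closest to miR-101a (0.29), let-7e (0.30) and miR-148a (0.33), and miR-99b to miR-544 (0.23), miR-190 (0.28) and miR-129-3p (0.31).

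miR-125a-5p ran closest to miR-138 (0.27), the rat assay miR-339-3p (0.32) and miR-410 (0.35). None of these is near another member by this rule. Cluster partners were not the nearest miRNAs of any 5′ arm, but most of their ratios had a small spread. Among cluster ratios without miR-125a-5p, miR-100 over miR-125b-5p was the tightest, and 3.02% of all pairs had a smaller SD. The widest of them was miR-99a over miR-125b-5p, at 19.8%. For let-7e and miR-99b over miR-125a-5p the share was 64.9% and 73.7%. Among the 189 other miRNAs, let-7e ranked 6 and miR-125a-5p ranked 157 for miR-99b, let-7c ranked 14 for miR-99a, and miR-125b-5p ranked 7 and let-7a ranked 47 for miR-100. Over all pairs of miRNAs the median SD was 0.68.

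**Figure D5:**
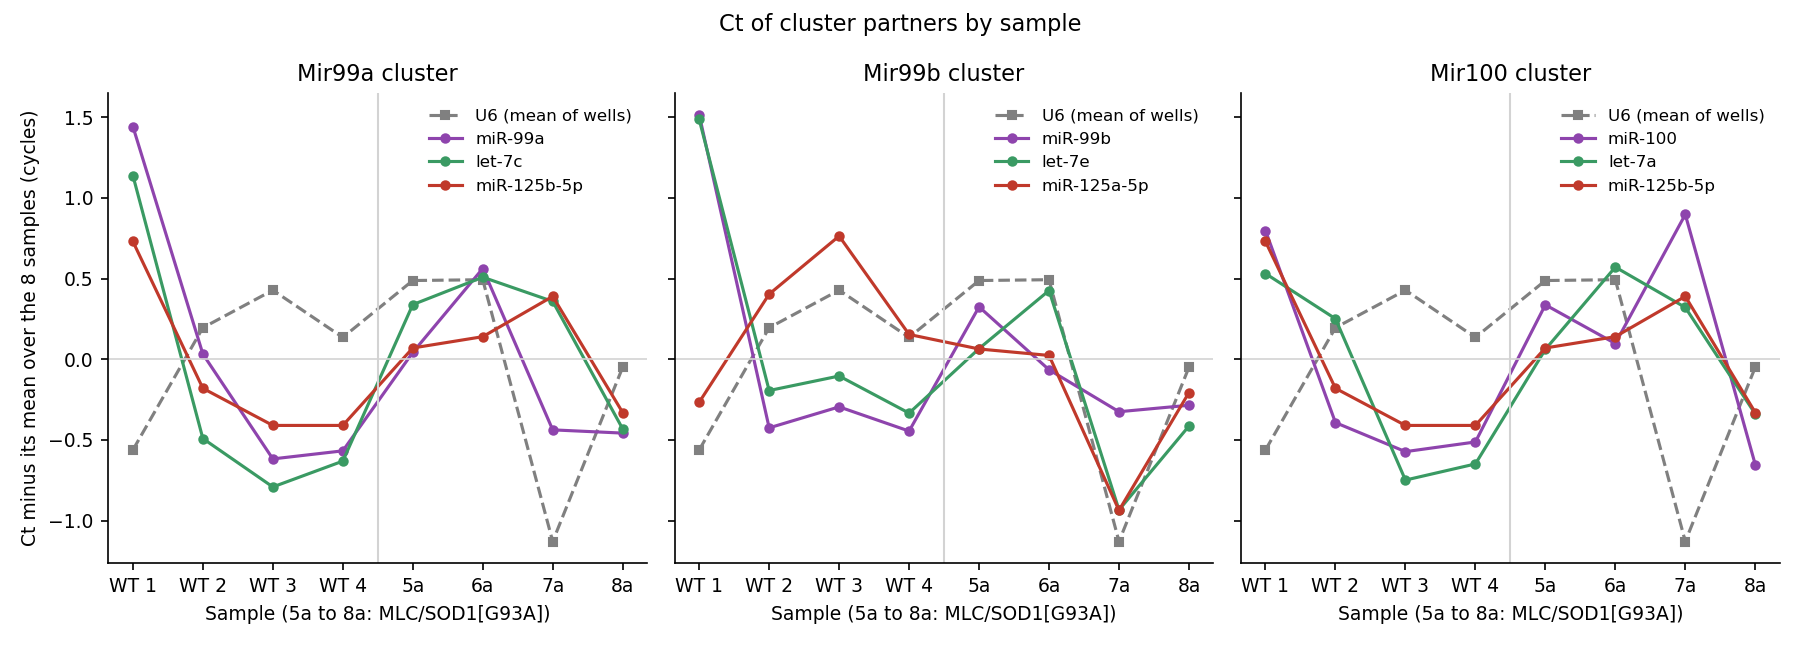
Ct minus its mean over the 8 samples (cycles) for the 3 miRNAs of each cluster and for U6 (grey, dashed), by sample. Lines only join the values of 1 assay. In wild type 1 the miRNAs lie above 0 except miR-125a-5p, which lies below it with U6, and in sample 7a miR-125a-5p and let-7e lie low with U6 while miR-100 lies high.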

How the data were processed

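Total RNA of the lumbar ventral cord (8 samples, n = 4 per group) was profiled on TaqMan card A. The authors deposited the threshold cycle (Ct) of each assay. They also deposited a log2 table, in which the mean Ct of the U6 wells was subtracted from each Ct, and it was used as an alternative. The deposited ratio table holds only the authors' comparison of the groups and was not used. The genome build, any efficiency correction and any pooling of mice are not given in the sources used here.

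Log2 expression was the reference Ct minus the Ct. Values with a Ct over 35 were left out, and the test took the 227 miRNAs that had 3 or more of the 4 values in both groups. It was limma 3.58.1 (R 4.3.3) without covariates, with Benjamini-Hochberg adjustment over the 227. Ratios and single members were compared by exact permutation of the samples (70 assignments, two-sided) in Python 3.11.15. Sequences and loci are from RefSeq (GRCm38.p6). The members and lists were chosen with earlier results of these data known. Named miRNAs were the members, their let-7 partners, the 3 miRNAs nearest to each 5′ arm, and listed related families and markers. Cards give no reads, so precision depends on how many there are. The labels number the samples and do not name the animals. The limma step was run on simulated data with a smaller spread than the real data and larger changes than those of the members. This checked only the code, and does not show how small a change could be found here. Alternatives were other references, a Ct limit of 32 or 40, stricter and looser rules on missing values, Mann-Whitney tests and leaving out samples.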

Additional observations from a re-analysis of the deposited data

Results flagged for a closer look

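In 7 of 46 groups of 4 values, 1 sample lay far from the other 3, by a test that flags about 1 in 20 groups by chance. The groups share samples and miRNAs. In wild type 1, miR-99b was at -11.48 relative to U6 on the log2 scale (others -8.83 to -8.68), the log2 ratio of miR-99b to miR-125a-5p was -3.65 (others -1.27 to -0.81), and that of let-7e to miR-125a-5p was -1.76 (others 0.48 to 0.86). In sample 7a, miR-125b-5p was at -8.67 relative to U6 (others -6.87 to -6.73), and the log2 ratio of miR-125a-5p to miR-125b-5p was 0.94 (others -0.51 to -0.27). The log2 ratio of miR-100 to let-7a was 2.53 in wild type 2 (others 1.62 to 1.75), and that of let-7a to miR-125b-5p was -3.67 in sample 6a (others -3.23 to -3.17).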

How the results depend on the processing

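No member passed an adjusted p of 0.05 in limma or an exact Mann-Whitney test under any alternative. The smallest adjusted p of any member in limma was 0.121, for miR-99a with Y1 in place of U6. With U6 kept as the reference, the adjusted p of miR-99a ran from 0.495 to 0.998. The direction of most members relative to U6 was not stable. With U87 as the reference the log2 changes of miR-99a, miR-99b, miR-125a-5p and miR-125a-3p were -2.23, -2.20, -1.84 and -3.60. With Y1 those of miR-99a, miR-99b and miR-125a-5p were 0.99, 1.02 and 1.37, with unadjusted p = 0.0129, 0.0172 and 0.0193 and adjusted p = 0.121, 0.130 and 0.133 in limma. Those of miR-100 and miR-125b-5p were 0.50 and 0.71 with Y1 (the latter at unadjusted p = 0.0430), and 0.053 and 0.26 with snoRNA135. miR-125b-5p was at 0.11 with the median Ct. miR-125a-3p was at -0.11 with the median Ct, -0.41 with snoRNA202, -0.23 without a reference and -0.41 with a Ct limit of 40. These references moved the median of all miRNAs from -0.31 to between -2.58 and 0.64. Without both wild type 1 and sample 7a, chosen after seeing the data, the changes relative to U6 were -0.38 for miR-99a, -0.32 for miR-99b and -0.47 for miR-125a-3p, that of miR-100 relative to the global mean was 0.019, and the ratio differences were -0.14 for miR-99a over miR-125b-5p, 0.06 for miR-100 over let-7a and -0.013 for miR-99a over miR-100. The cause was not tested.

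With 1 sample left out in turn, the log2 changes relative to U6 ran from -0.61 to 0.40 for miR-99a, -0.60 to 0.36 for miR-99b, -0.97 to 0.16 for miR-100, -0.70 to 0.23 for miR-125b-5p and -0.47 to 0.62 for miR-125a-3p. Relative to the global mean they ran from -0.23 to 0.14 for miR-100 and -0.39 to 0.38 for miR-125a-3p. The ratio differences that changed sign ran from -0.70 to 0.17 for let-7e over miR-125a-5p, -0.20 to 0.18 for miR-100 over let-7a and -0.19 to 0.17 for miR-99a over miR-99b. That of miR-125a-3p over miR-125a-5p ran from -0.93 to 0.00 and did not turn positive. The number of ratios whose groups did not overlap ran from 1 to 6, with 6 without wild type 1, 2 without wild type 2 (8.54% of all pairs) and 2 without sample 6a (7.82%). It was 6 without both wild type 1 and sample 7a (22.0% of all pairs). Both counts of 6 include miR-125a-3p over miR-125a-5p, which is not among the pairs measured in all samples. No paired analysis was made, as the labels give no pairing of wild type with MLC/SOD1[G93A] samples. The MLC/SOD1[G93A] columns also do not carry the replicate numbers of the labels.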
